A study of Mus musculus with 12 samples.

Results

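The genes described here are *Ccnb1*, *Cdc20*, *Cdca3*, *Birc5*, *Cenpa*, *Oip5*, *Kif22* and *Ckap2l*, 8 of the 479 genes in the deposited table. All of them encode proteins that act in mitosis or at the centromere. They were taken from the table by symbol, with their higher levels in the mutant thymus and their joint variation among WT mice already known, so both of these are given as descriptions without a test. Each library came from the thymus of 1 mouse at 1 month of age, with 6 WT mice and 6 *Axl-/-Mertk-/-* mice (AMDKO in the labels) and 3 males and 3 females per genotype. The mutants carry inactivated genes for the receptor tyrosine kinases Axl and Mer in all their cells, both lines are on a C57BL/6 background, and WT and mutant mice were housed apart, so that genotype and housing cannot be told apart. Mice are named by genotype and by the number in their label. Values are FPKM, the reads on a gene divided by its exon length and by the mapped reads of the library, recovered from deposited log2(FPKM + 5) values.

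A cell that enters mitosis activates Cdk1 through cyclin B, attaches its chromosomes to the spindle through the kinetochores that form on centromeres, and leaves mitosis when the anaphase-promoting complex marks cyclin B for destruction. Transcripts of many of the proteins involved are made late in the cell cycle and fall once the cell has divided, so in a whole tissue they are commonly read as marks of dividing cells. In the young thymus most division takes place among immature thymocytes of the cortex. In RNA of a whole tissue, a larger share of dividing cells and more mRNA per dividing cell cannot be told apart.

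The promoters of many late cell cycle genes carry CCAAT boxes, which bind the factor NF-Y, and a cell cycle genes homology region, usually written TTTGAA or TTCGAA, which binds MuvB complexes. The stretches from 125 bases before to 50 bases after the annotated start are shown, on the coding strand and from RefSeq on GRCm38.p6, for 5 of the genes: those on chromosome 2 (*Ckap2l* and *Oip5*), 2 typical members (*Cdc20* and *Kif22*), and *Birc5*, in which no copy was found. Capitals mark CCAAT and TTTGAA, and ATTGG and TTCAAA are the same motifs read on the other strand.
Ckap2l, chr2:129297163-129297337, minus strand: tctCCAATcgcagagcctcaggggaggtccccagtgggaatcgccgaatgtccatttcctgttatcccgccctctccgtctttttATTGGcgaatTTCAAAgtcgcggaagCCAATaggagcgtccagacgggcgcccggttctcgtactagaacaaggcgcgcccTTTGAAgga
Oip5, chr2:119618456-119618630, minus strand: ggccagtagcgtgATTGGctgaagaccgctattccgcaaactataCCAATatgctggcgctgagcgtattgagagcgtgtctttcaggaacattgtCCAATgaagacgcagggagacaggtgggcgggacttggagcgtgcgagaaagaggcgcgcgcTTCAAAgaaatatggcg
Cdc20, chr4:118437294-118437468, minus strand: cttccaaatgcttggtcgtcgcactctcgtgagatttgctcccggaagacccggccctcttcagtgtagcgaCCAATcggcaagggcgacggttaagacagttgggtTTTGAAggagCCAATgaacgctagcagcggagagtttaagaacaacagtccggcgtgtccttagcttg
Kif22, chr7:127042371-127042545, minus strand: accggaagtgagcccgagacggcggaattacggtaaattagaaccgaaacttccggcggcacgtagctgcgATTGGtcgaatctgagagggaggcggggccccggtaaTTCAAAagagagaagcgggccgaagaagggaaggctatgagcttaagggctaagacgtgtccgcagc
Birc5, chr11:117849112-117849286, plus strand: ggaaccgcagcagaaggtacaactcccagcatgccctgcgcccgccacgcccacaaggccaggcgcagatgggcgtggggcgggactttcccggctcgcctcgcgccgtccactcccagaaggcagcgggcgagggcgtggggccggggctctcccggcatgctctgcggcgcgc

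In the window of 300 bases from 250 before to 50 after the start, CCAAT was found on either strand in 7 of the 8 members, against 37.4% of 32851 mouse promoters and 34.4% of the 456 promoters of genes in the table. TTTGAA was found in 6 members, against 17.9% of all promoters and 19.5% of those in the table. The same 6 members held both motifs (*Cdc20*, *Cdca3*, *Cenpa*, *Oip5*, *Kif22* and *Ckap2l*), against 6.95% of all promoters and 7.46% of those in the table. TTCGAA was found in 0 members and in 1.56% of all promoters. *Ccnb1* had 2 copies of CCAAT, which began 99 and 67 bases before the start, and no TTTGAA. *Ckap2l* had 2 copies of TTTGAA, beginning at positions -30 and 42 from the start, with CCAAT at -122, -40 and -14, and *Kif22* also had 2, of which that at -17 is within the stretch shown. The 2 motifs did not overlap in any member. These are matches of letters, and a match does not show that a factor binds there.

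All 8 genes had a higher mean level in the *Axl-/-Mertk-/-* thymus, with ratios of mean FPKM between 1.41 for *Kif22* and 1.60 for *Oip5* and a median of 1.45. The table is a selected list, in which 166 of 479 genes had a higher mean in the mutants, with a median ratio of 1.63, and the median ratio over all 479 genes was 0.676. For 4 of the 8 members every mutant lay above every WT mouse (*Cdc20*, *Cdca3*, *Cenpa* and *Ckap2l*), where 12.7% of the genes in the table did so, and since the members were chosen on this contrast nothing is read from the difference. The members were among the most abundant transcripts in the table, at places 2 (*Birc5*) to 43 (*Oip5*) by mean FPKM, where the median gene had 0.89 FPKM. *Axl* checked the labels, with 11.9 to 16.9 FPKM in WT mice and 1.92 to 2.45 FPKM in the mutants. *Mertk* was not analysed here.

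*Ccnb1*, which encodes cyclin B1, the partner through which Cdk1 drives entry into mitosis, lies at chr13:100778650-100786570 on mm10. It had between 5.30 and 10 FPKM in WT mice (median 8.51) and between 9.61 and 13.4 FPKM in the mutants (median 11.1). The groups met only at their edges, since 1 mutant, male AMDKO-202, lay below the highest WT mouse, female WT-215. WT and mutant means were 7.87 ± 1.89 and 11.2 ± 1.33 FPKM (SD, n = 6 each), a difference of 0.34 ± 0.0754 (SE) on the log2(FPKM + 5) scale.

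*Cdc20*, the activator that directs the anaphase-promoting complex to its mitotic targets, lies at chr4:118432901-118437352. WT mice had between 21.0 and 36.4 FPKM (median 30.5) and mutants between 37.7 and 45.0 FPKM (median 42.2). No mutant fell among the WT mice, and the lowest mutant, male AMDKO-264, was just above the females WT-214 and WT-215. Mean levels were 29.5 ± 6.54 and 41.9 ± 2.37 FPKM (SD, n = 6 each), a difference of 0.46 ± 0.0942 (SE) on the log2 scale with 5 added.

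*Cdca3*, whose product promotes entry into mitosis by helping to degrade the kinase Wee1, lies at chr6:124829547-124833701. Its level ranged from 40.8 to 73.1 FPKM in WT mice (median 59.7) and from 76.8 to 90.2 FPKM in the mutants (median 85.5). All mutants were above all WT mice. The means of 58.0 ± 13.3 and 84.9 ± 4.85 FPKM (SD, n = 6 each) differed by 0.54 ± 0.115 (SE) on the log2(FPKM + 5) scale.

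Of the centromere genes, *Birc5* encodes survivin, a subunit of the chromosomal passenger complex that corrects faulty spindle attachments, and lies at chr11:117849251-117855743. It was the most abundant member, with 58.2 to 99.4 FPKM in WT mice (median 75.1) and 97.7 to 129 FPKM in the mutants (median 107). Female WT-215 reached 99.4 FPKM and male AMDKO-264 had 97.7 FPKM, and this was the single point of overlap. The means of 76.8 ± 17.6 and 110.0 ± 11.04 FPKM (SD, n = 6 each) differed by 0.51 ± 0.118 (SE) on the log2(FPKM + 5) scale.

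*Cenpa*, the histone variant that marks centromeric chromatin, lies at chr5:30666777-30674830. It had 30.8 to 50.2 FPKM in WT mice (median 40.9) and 58.6 to 63.9 FPKM in the mutants (median 60.3), so the gap between the groups was wider than the whole range of the mutants. The means were 40.3 ± 7.78 and 60.8 ± 2.26 FPKM (SD, n = 6 each), and the difference of 0.55 ± 0.0918 (SE) was the largest of the 8 on the log2(FPKM + 5) scale.

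*Oip5* encodes a subunit of the Mis18 complex, which prepares centromeres to take up new CENP-A, and lies at chr2:119609512-119618469. It was the least abundant member, with 3.65 to 7.82 FPKM in WT mice (median 6.08) and 7.65 to 10.8 FPKM in the mutants (median 9.87). Male AMDKO-202 lay just below female WT-214, and the other 5 mutants lay above all WT mice. Its means of 5.89 ± 1.56 and 9.44 ± 1.26 FPKM (SD, n = 6 each) gave the highest ratio of the 8, 1.60, and a difference of 0.41 ± 0.0744 (SE) on the log2(FPKM + 5) scale, where the added constant shrinks the change of low genes most. Without a constant the log2 difference of *Oip5* was 0.71.

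Of the genes that act on chromosomes and the spindle, *Kif22* encodes a kinesin that binds chromosome arms and pushes them toward the spindle equator, and lies at chr7:127027729-127042471. It had 24.5 to 41.3 FPKM in WT mice (median 32.8) and 39.2 to 50.2 FPKM in the mutants (median 46.7). Male AMDKO-264 alone lay within the WT range, below females WT-214 and WT-215. The means of 32.6 ± 7.33 and 45.9 ± 3.80 FPKM (SD, n = 6 each) differed by 0.46 ± 0.103 (SE) on the log2(FPKM + 5) scale.

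*Ckap2l*, which encodes a protein of the mitotic spindle, lies at chr2:129268210-129297212. WT mice had between 11.6 and 21.8 FPKM (median 20.2) and mutants between 22.7 and 31.1 FPKM (median 29.0), without overlap. The means were 18.2 ± 4.26 and 28.1 ± 3.18 FPKM (SD, n = 6 each), a ratio of 1.54 and a difference of 0.53 ± 0.104 (SE) on the log2(FPKM + 5) scale. Some reads of 4 members may come from overlapping genes on the other strand, since 181 of 3137 exon bases of *Ckap2l*, 172 of 1778 of *Oip5*, 53 of 1868 of *Cdc20* and 96 of 4903 of *Kif22* are shared with *Gm14024*, *Nusap1*, *Elovl1* and *Gm31749*. The libraries were stranded, but whether reads were counted by strand is not given in the sources used here. Processed pseudogenes of *Kif22* and *Ccnb1* are also annotated, and how reads shared with them were counted is likewise not given.

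**Figure D1:**
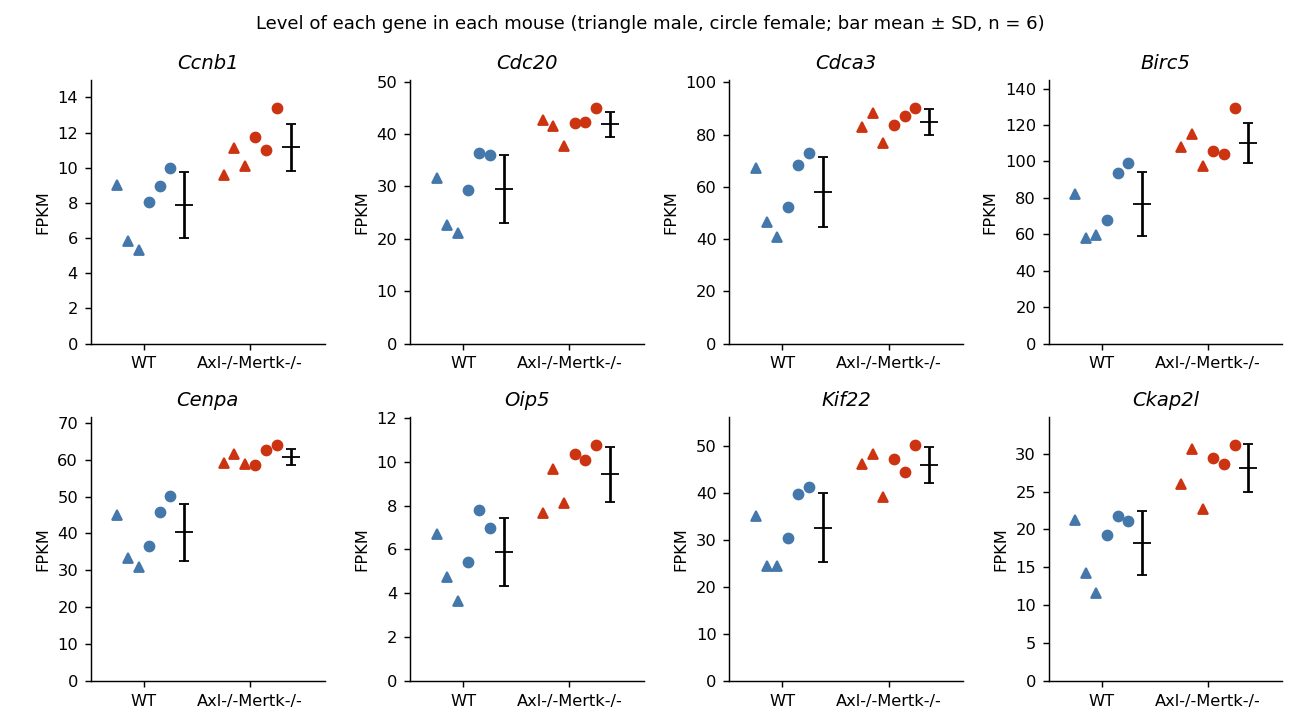
FPKM of each of the 8 genes (one panel per gene, y axis from 0) in 6 WT mice (blue) and 6 *Axl-/-Mertk-/-* mice (red), with triangles for males, circles for females and the mean ± SD beside each group. Mutants lie above all WT mice for *Cdc20*, *Cdca3*, *Cenpa* and *Ckap2l*, and 1 mutant lies below the highest WT mouse for each of the other 4 genes.

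In the levels of the 8 members, WT mice differed from each other more than mutants did. Across WT mice the SD was between 19.3% (*Cenpa*) and 26.5% (*Oip5*) of the mean, and across mutants between 3.72% (*Cenpa*) and 13.4% (*Oip5*). All 8 members had the larger relative spread in WT mice, while 42.4% of all genes in the table did, and 19 of the 35 other genes with a mean at or above that of the lowest member did (54.3%). In those 35 genes the median relative SD was 16.6% in WT and 16.3% in mutant mice. The joint variation of the members among WT mice was known when they were chosen, and the 8 genes vary together. Nothing is therefore read from their difference from the other genes. The highest WT mouse had 1.63 to 2.14 times the level of the lowest, depending on the gene, and the highest mutant 1.09 to 1.41 times. Counting error was small beside the WT spread, since the estimated depth was 18840000 to 24460000 reads in WT and 19330000 to 23810000 in mutant libraries. For *Oip5* this gave about 92 to 277 reads per mouse and a counting error of 8.33% at the WT mean. The mutant spread of *Cenpa* is not larger than its counting error of 4.55% if its shortest annotated transcript, of 369 bases, was the one counted.

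The same WT mice were low for every member. Males WT-211 and WT-212 were the 2 lowest WT mice for all 8 genes, with WT-212 lowest for 7 and WT-211 lowest for 1, *Birc5*. Females WT-215 (5 genes) and WT-214 (3 genes) were highest. Summed over the 8 genes, male WT-212 had 197 FPKM, male WT-211 had 210.01 FPKM and female WT-213 had 249 FPKM, while male WT-210 and females WT-214 and WT-215 had 298, 322 and 338 FPKM. Mutants ranged from 351 FPKM in male AMDKO-264 to 434 FPKM in female AMDKO-231, and the summed level of every mutant was above that of every WT mouse. The members were chosen on this contrast, so nothing is read from that. Most of the sum came from *Birc5*, *Cdca3* and *Cenpa*, with WT means of 76.8, 58.0 and 40.3 FPKM in a mean sum of 269 FPKM. The estimated depth was 23215000 reads in male WT-211, 23310000 in male WT-212 and 18840000, the fewest of the WT libraries, in female WT-214, and the part of depth in these levels was not tested.

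**Figure D2:**
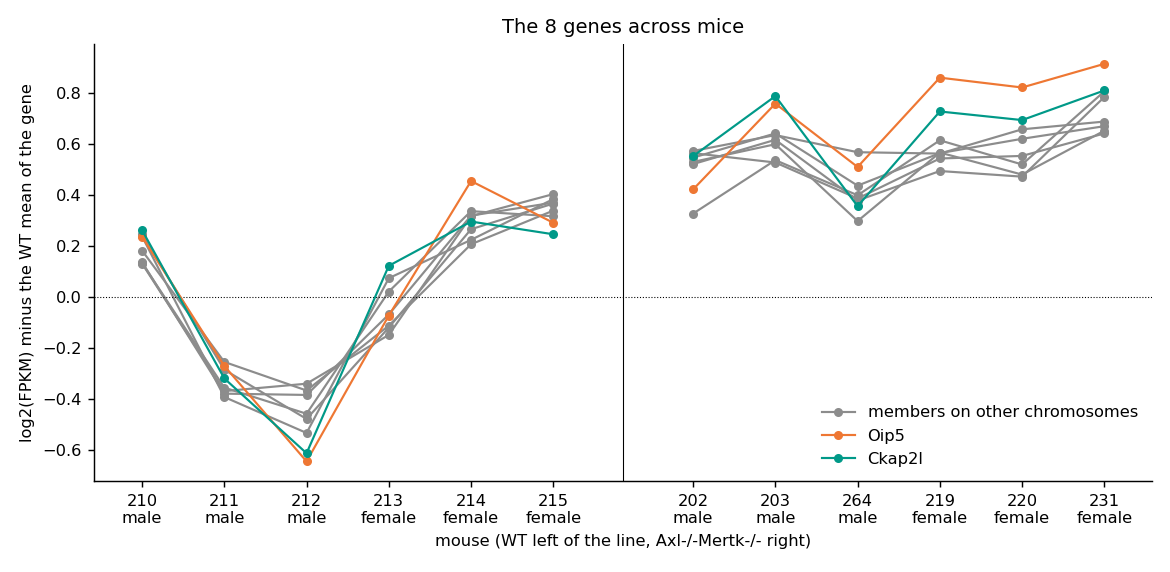
log2(FPKM) of each gene minus its own WT mean (y axis) in each mouse (x axis, males before females within a genotype), with 1 line per gene, *Oip5* in orange, *Ckap2l* in green and the 6 members on other chromosomes in grey. All lines dip at males WT-211 and WT-212, and all peak among the mutants at female AMDKO-231.

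Among the 28 pairs of members, the correlation over WT mice was between 0.86 (*Birc5* with *Ckap2l*) and 0.996 (*Cdca3* with *Cenpa*), with a median of 0.96. Each member was also set against the mean of the others that do not lie on chromosome 2. Over the 6 WT mice, Pearson's r ranged from 0.93 for *Ckap2l* to 0.99 for *Kif22*, and when the 2 mice farthest from the median, males WT-211 and WT-212, were left out it ranged from 0.85 (*Ckap2l*) to 0.99 (*Birc5*). Of the 471 other genes in the table, 4 reached the lowest of these values over the 6 WT mice, and their median r with the mean of the 6 members off chromosome 2 was -0.49. These values share libraries and their normalization, and since the joint variation in WT mice was known when the genes were chosen, they carry no p-value.

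In the mutants the same correlations were tested over the 720 orders of 6 mice, for which the smallest two-sided p of a rank correlation without ties is 0.00278. The joint variation known when the genes were chosen was that among WT mice. Other earlier results of these data were also known, so these tests may not be independent of the choice. The values also share libraries and their normalization. *Ckap2l* followed the mean of the 6 members with Pearson r = 0.91 (two-sided exact permutation p = 0.00417, adjusted over 8 relations 0.0333) and Spearman rho = 1 (exact permutation p = 0.00278, adjusted 0.0222), and with females AMDKO-219 and AMDKO-220 and males AMDKO-202 and AMDKO-203 alone, without the 2 farthest mice, r was 0.95. The call was lost when any single mutant was left out, with r between 0.79 and 0.98 and adjusted exact p between 0.0667 and 0.233 over 5 mice. Fewer mice leave fewer orders. Without AMDKO-202 or without AMDKO-231 the exact permutation p was 0.00833, the smallest that 5 mice allow, and its adjusted value was 0.0667. The loss of the call is therefore not read as a weaker relation. *Oip5* had r = 0.75 (exact permutation p = 0.0736, adjusted 0.0841) and rho = 0.77 (exact permutation p = 0.103, adjusted 0.164), and r = 0.63 without the 2 farthest mice. The other 6 members had r between 0.74 (*Cenpa*) and 0.91 (*Cdca3*), with adjusted exact permutation p between 0.0519 and 0.0972, and rho between 0.43 and 0.94, with adjusted exact p between 0.0667 and 0.419. Female AMDKO-231, the highest mutant for all 8 genes, and male AMDKO-264, the lowest for 5, were the 2 farthest mice for every member. Without them, over 4 mice, r fell to 0.22 for *Ccnb1*, 0.28 for *Cenpa*, 0.38 for *Birc5* and 0.39 for *Kif22*. It turned to -0.98 for *Cdc20* and stayed at 0.74 for *Cdca3*. In those 4 mice *Cdc20* spanned only 41.6 to 42.6 FPKM, with a counting error of 2.48% at the mutant mean, so nothing is read from its sign. Leaving out the farthest mice also narrows the range over which r is taken. Without AMDKO-231 alone r was 0.44 for *Ccnb1*, 0.47 for *Cenpa*, 0.80 for *Birc5*, 0.89 for *Kif22* and 0.76 for *Cdc20*. Without AMDKO-264 alone the values were 0.79, 0.70, 0.89, 0.78 and 0.72 in that order. Within sexes, with the mean of each sex subtracted, r among the mutants lay between 0.63 (*Oip5*) and 0.95 (*Birc5*). The 28 pairs had r between 0.52 and 0.95 over the mutants, with a median of 0.76. Of the 471 other genes, 24 reached the lowest member's r over the mutants, and their median r was 0.020.

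**Figure D3:**
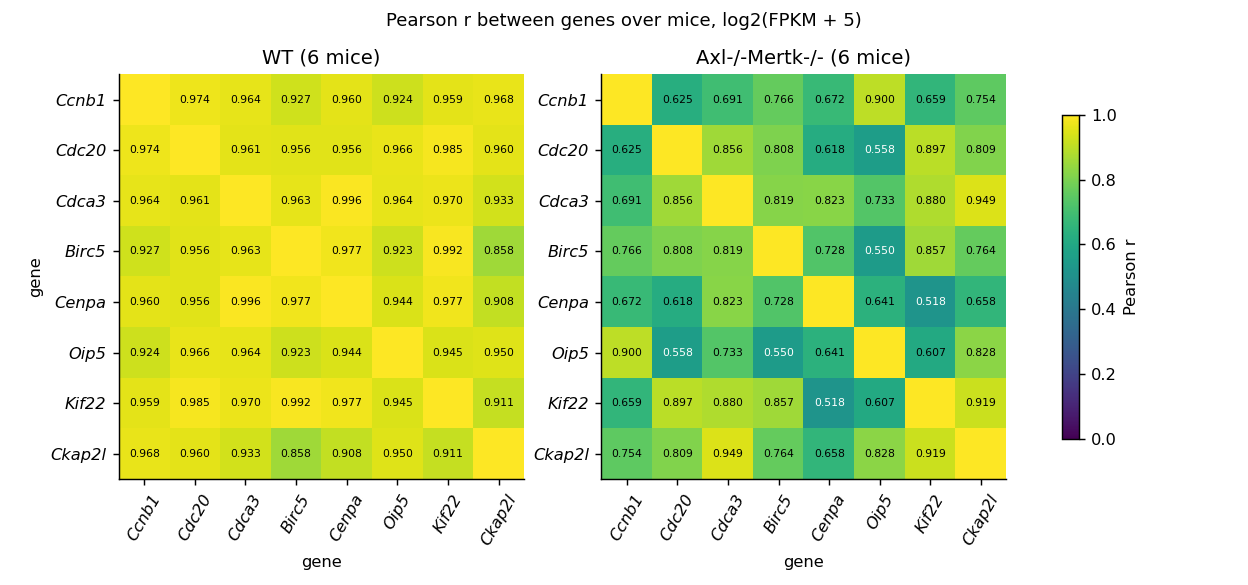
Pearson r of log2(FPKM + 5) between each pair of the 8 genes (rows and columns) over 6 WT mice (left) and 6 *Axl-/-Mertk-/-* mice (right), on a colour scale from 0 to 1. Values lie between 0.858 and 0.996 over the WT mice, and between 0.518 and 0.949 over the mutants.

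*Ckap2l* and *Oip5* lie on the chromosome of *Mertk*, at 0.465 and 9.08 Mb from it, and the other members lie on other chromosomes. Of the genes in the table, 30 lie within 10 Mb of *Mertk* on either side, *Ckap2l* and *Oip5* among them, and 16 of the 30 had a higher mean in the mutants. No overlap between the genotypes in either direction was found for 21 of the 30, a larger share than the 39% of all genes in the table (187 of 479). The reason was not tested. Across WT mice the 2 genes moved with the rest, as given above. Their ratios between the genotypes, 1.54 and 1.60, were the highest of the 8, with *Cenpa* next at 1.51. Relative to the mean log2(FPKM) of the 6 members on other chromosomes, *Ckap2l* was at -0.88 ± 0.133 among WT mice and -0.78 ± 0.0928 among mutants (SD, n = 6 each), a shift of 0.10 with 1 of 6 mutants above the highest WT mouse. *Oip5* was at -2.51 ± 0.136 in WT and -2.35 ± 0.141 in mutant mice (SD, n = 6 each), a shift of 0.16 with 3 of 6 mutants above the highest WT mouse. Each shift is about the size of 1 SD between mice. Set in the same way against the 5 others of their own group, the 6 members off chromosome 2 shifted by between -0.041 (*Kif22*) and 0.071 (*Cenpa*).

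**Figure D4:**
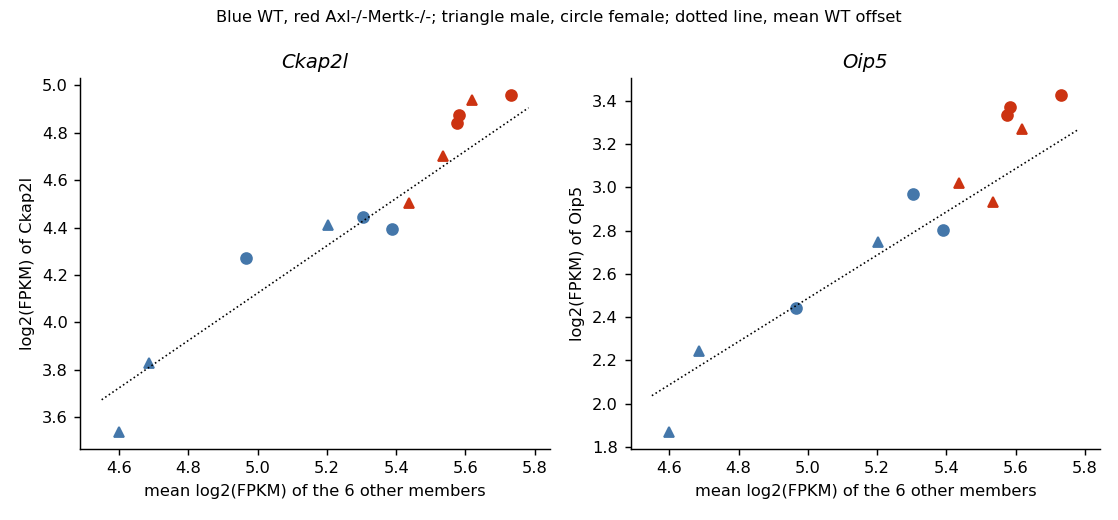
log2(FPKM) of *Ckap2l* (left) and *Oip5* (right) on the y axis against the mean log2(FPKM) of the 6 members on other chromosomes on the x axis, 1 point per mouse, WT in blue and *Axl-/-Mertk-/-* in red. The dotted line has the mean WT offset, and the mean of the mutants lies 0.10 above it for *Ckap2l* and 0.16 above it for *Oip5*.

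All 8 genes had lower mean log2 values in males than in females, by between 0.15 (*Cenpa*) and 0.24 (*Ckap2l*) on the log2(FPKM + 5) scale, but none passed limma's test after Benjamini-Hochberg adjustment over the table (adjusted p between 0.256 and 0.462), nor did any other gene (0 of 479, 0%). An unadjusted p-value under 0.05 was reached by 4 members, *Ccnb1*, *Cdc20*, *Oip5* and *Ckap2l*, and by 69 of the 479 genes (14.4%), and 23.8% of the genes in the table had a lower mean in males. The males WT-211 and WT-212 were the 2 lowest mice of that genotype, so that in WT mice the sex difference and these 2 libraries cannot be told apart. For *Cdc20* the difference of males from females was -0.38 among WT and -0.077 among mutant mice, and for *Oip5* it was -0.23 and -0.20.

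Within each sex the genotypes were fully separated for all 8 genes, in males and in females alike, where 26.7% of the genes in the table were higher without overlap in either sex. Only 166 of the 479 genes had a higher mean in the mutants, and 3 mice were set against 3. The members were chosen as higher in the mutants, so nothing is read from their difference from that share. The median difference between mutant and WT mice over the members was 0.62 in males and 0.38 in females on the log2(FPKM + 5) scale. The difference of these differences did not pass the test for any member or any other gene in the table (limma, adjusted p between 0.962 and 0.972 for the members, 0 of 479 genes called, and 15 genes, 3.13%, at an unadjusted p under 0.05, none of them a member). For *Cdc20*, with the largest such difference, it was 0.30 with a 95% confidence interval from -0.081 to 0.69, and for *Oip5*, with the smallest, 0.038 with an interval from -0.31 to 0.39.

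A list of 151 other symbols of cell cycle genes, some of them alternative names of the same gene, covered mitotic kinases and regulators, spindle proteins and kinesins, centromere and kinetochore proteins, chromosome condensation and DNA replication. Of these the table held 2, *Cdkn3* and *Psrc1*, and the rest were not analysed here. In limma 455 of the 479 genes had an adjusted p under 0.05 for genotype, so the table holds mostly genes that differ between the genotypes. Cell cycle genes outside it may not have differed, and the members do not stand for cell cycle genes in general. *Cdkn3*, a phosphatase that acts on cyclin-dependent kinases, had 5.86 to 12.1 FPKM in WT and 12.5 to 13.7 FPKM in mutant mice, without overlap. *Psrc1*, a microtubule-binding protein of the spindle, had 4.52 to 6.78 FPKM in WT and 6.32 to 8.77 FPKM in mutant mice, with 1 mutant below the highest WT mouse. Their ratios of means, 1.48 and 1.47 in that order, lay within the range of the members. Both genes come from the same selected list as the members, so nothing is read from this likeness.

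The genes most like the members were found from residuals, after the mean of each genotype and sex was subtracted, by the correlation with the mean of the 6 members off chromosome 2 over 12 mice. Among the closest of the other genes were *Fam64a* (r = 0.94), *Cdkn3* (0.93), *Pif1* (0.92) and *Mxd3* (0.91). For each of these 4 genes r was higher over WT mice, whose spread was wider, than over mutants, and the difference was not tested. Taken within a genotype and without subtracting the means of the sexes, r was 0.99 over WT and 0.088 over mutant mice for *Fam64a*, 0.90 and 0.47 for *Cdkn3*, 0.98 and 0.88 for *Pif1*, and 0.97 and 0.56 for *Mxd3*. By the residual measure the members themselves had r between 0.87 and 0.98, the median of the other genes was -0.18, and *Psrc1* was in place 8 with 0.77. *Fam64a* had 10.7 to 19.9 FPKM in WT mice and 22.0 to 22.9 FPKM in the mutants. *Mxd3*, a transcription factor of the Myc network, had 19.2 to 30.9 FPKM in WT mice and 31.4 to 38.6 FPKM in the mutants. Neither overlapped between the genotypes. *Pif1*, a DNA helicase, had 4.67 to 9.16 FPKM in WT and 7.68 to 11.5 FPKM in mutant mice, with male AMDKO-264 again the lowest mutant.

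**Figure D5:**
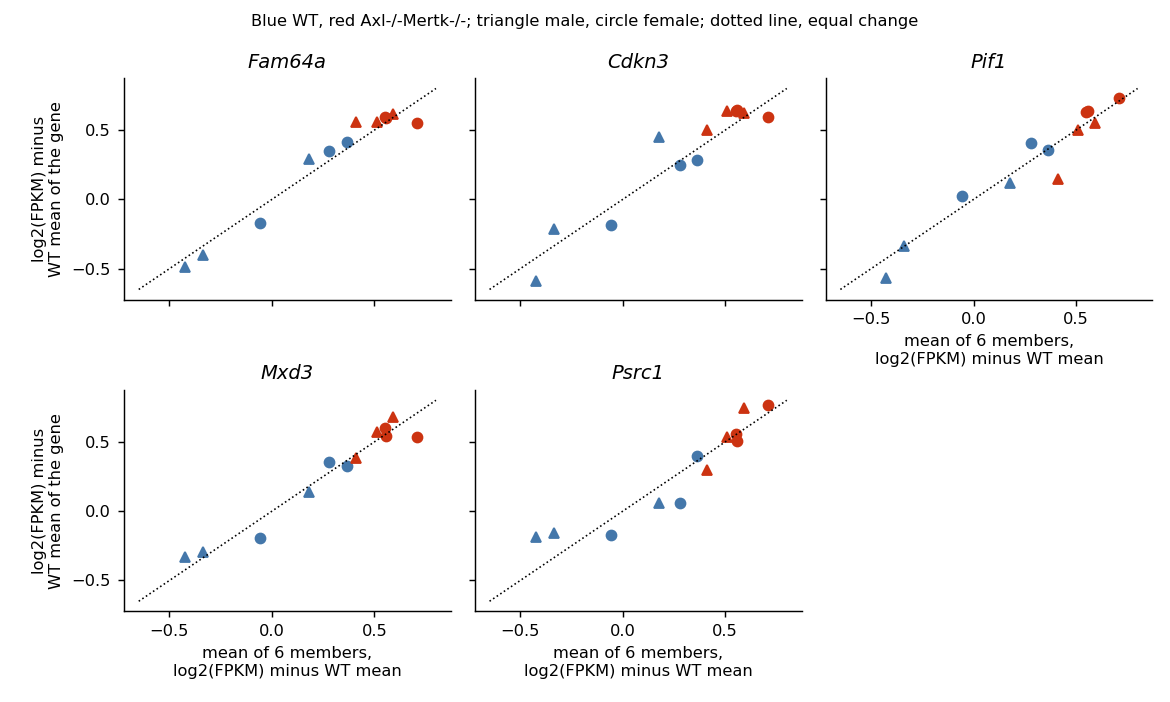
Level of *Fam64a*, *Cdkn3*, *Pif1*, *Mxd3* and *Psrc1* (y axis) against the mean of the 6 members off chromosome 2 (x axis), both as log2(FPKM) minus the WT mean, 1 point per mouse, WT in blue, *Axl-/-Mertk-/-* in red, triangles for males and circles for females. The mean of the mutants lies above that of the WT mice in all 5 panels, and single points lie at varying distances from the dotted line of equal change. For *Fam64a* the mutants lie nearly level, at 22.0 to 22.9 FPKM.

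Markers of other cells of the thymus were mostly outside the table, which held 0 of 14 thymocyte, 0 of 8 thymic epithelium, 0 of 6 B cell, 0 of 4 plasma cell, 0 of 7 dendritic cell and 0 of 5 neutrophil markers, so that the labelled tissue could not be checked against thymocyte genes. The table held 7 of 12 macrophage markers (*C1qa*, *Vcam1*, *Timd4*, *Cd163*, *Spic*, *Siglec1* and *Mrc1*), and all 7 had a lower mean in the mutants, the reverse of the members. Their summed level was 129 to 201.6 FPKM in WT and 75.4 to 119 FPKM in mutant mice, and none was at 0 in any library. The low males WT-212 and WT-211 had the highest macrophage sums of the WT mice, 201.6 and 150 FPKM, and the other 4 WT mice had between 129 and 143 FPKM. As a description, the r of the macrophage sum with the mean of the 6 members off chromosome 2 was -0.69 over the 6 WT mice and -0.087 over the 6 mutants, and the single markers ranged from -0.96 to -0.33 over WT mice. A negative r was common in the table, with 77.7% of the 471 other genes (median -0.49) over WT mice and 48.6% (median 0.020) over mutants. Most of the sum came from *C1qa* and *Vcam1*, with WT means of 84.4 and 51.0 FPKM in a mean sum of 150 FPKM. Among the mutants, female AMDKO-231, highest for all members, had 103 FPKM, in the middle of that group. Of the erythroid list the table held 1 of 10 markers (*Epb42*), of the NK and innate T cell list 2 of 5 (*Zbtb16* and *Eomes*), and of the fibroblast and endothelium list 1 of 5 (*Pdgfra*), all with lower means in the mutants. FPKM are shares of a library, and the part of other cells in the levels of the members was not tested.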

How the data were processed

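Total RNA of whole thymus from 12 mice was made into stranded mRNA libraries from 500 ng RNA and sequenced as single reads of 50 bases. The submitters' notes and methods name CASAVA 1.8.2, STAR 2.5.3a, mm10 and HOMER 4.10.4, with FPKM over the exons of the top isoform. The authors deposited log2(FPKM + 5) values of 479 genes, 1 column per mouse. The rule that selected these genes, the annotation and the use of strand in counting are not given in the sources used here. Raw counts were not used here, so the authors' count model with sex as a covariate was replaced by limma 3.58.1 (R 4.3.3) on the deposited log2 scale, which kept the sex term and adjusted p-values over the 479 genes by the method of Benjamini and Hochberg. No p-value for genotype is given for a member, since the members were chosen on that contrast.

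Correlations were tested by exact permutation in Python 3.11.15 (numpy 2.4.6, scipy 1.17.1, pandas 2.3.3, figures with matplotlib 3.10.9). Depth was estimated from the steps of the FPKM of 456 genes with a known transcript length. Estimates from 2 equal sets of those genes differed by at most 0.862%, and read numbers cover counting error only. Gene positions and exon overlaps are from GENCODE vM21 on mm10, which placed 462 of the 479 genes, and promoters from RefSeq (354 symbols of the table matched). Mice were grouped by their labels, which give each mouse its own number, and mouse WT-210 has an added letter b in its label that no source explains. Each mouse is 1 replicate, and no 2 libraries held identical values.

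Members, gene lists and marker lists were chosen with earlier results of these data known. The genes named are the members, *Axl*, the 5 genes most correlated with the members after the mean of each genotype and sex was subtracted, and the listed cell cycle genes and cell type markers that the table holds. Of the 5 genes, 1 is not reported here. Genes sharing exon bases with a member were named after the overlap was seen. The alternatives were constants of 1, 0.1 and none in the logarithm, a mean of at least 1 FPKM, an intensity trend, no covariate, each sex or genotype alone, each mouse left out, rank correlation, and leaving out the 2 mice farthest from the median. The fits without a constant, and the counts of members without overlap in each sex or without each mouse, were chosen after seeing the data.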

Additional observations from a re-analysis of the deposited data

How the results depend on the processing

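The median difference of the 8 members between the genotypes was 0.49 on the log2(FPKM + 5) scale and stayed positive under every alternative run, between 0.38 (females alone) and 0.62 (males alone), and between 0.43 and 0.54 without single mice. With no constant it was 0.56. The number of members with an adjusted p under 0.05 in limma for sex or for the interaction of genotype and sex was 0 in all alternatives run. The sign of the interaction of *Oip5* turned without WT-212 (-0.064), without WT-214 (-0.028) and without AMDKO-203 (-0.024), at adjusted p of at least 0.965 in limma, and ranged from -0.064 to 0.16 without single mice.

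The number of members whose correlation with the others passed among the mutants was 1 with all mice, with each constant and with ranks, and 0 without the 2 farthest mice. It was also 0 without any single mutant. In both cases fewer mice leave fewer orders, so these counts are partly set by the number of mice. The correlation of *Cdc20* turned to -0.98 without the 2 farthest mice, over 4 mice whose *Cdc20* levels spanned only 41.6 to 42.6 FPKM. The number of members without overlap between the genotypes was 4 with all mice, between 4 and 6 without single mice, and 8 in males alone and 8 in females alone. Of all genes in the table, 12.7% were higher without overlap with all mice, 13.4% to 15.9% without single mice and 26.7% in each sex alone. Since the members were chosen on this contrast, nothing is read from their difference from these shares. The number of members rose to 6 without WT-215 and without AMDKO-202 or AMDKO-264. No paired analysis was possible because the mouse numbers are not shared between the genotypes.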
